A study of Mus musculus with 2 samples.

Results

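The genes described here are 38 genes whose products build the mitotic spindle, attach it to chromosomes, guard the timing of anaphase, split the cell and compact chromosomes. They were read in mouse embryonic stem cells (mESCs) depleted of AIMP3, a scaffold protein of the multi-aminoacyl-tRNA synthetase complex that is encoded by *Eef1e1*. Members were found by matching probe accessions and symbols to the 38 gene names, and all 38 were on the array and were tested, among 24021 genes tested in all. Their 50 tested probes come from 10 roles, from the spindle checkpoint to condensin.

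Both groups were AIMP3f/f;cre-ERT2 mESCs, in which both *Eef1e1* alleles are floxed and the Cre recombinase is fused to a tamoxifen-responsive oestrogen receptor domain. The AIMP3-depleted group comprised 2 replicates treated with 2 μM tamoxifen (4-OHT in the methods) for 4 days in medium with LIF, and the control cells received ethanol for the same time. Each depleted replicate was labelled with Cy5 (red) and hybridized to its own Agilent 2-colour array against Cy3-labelled (green) RNA of 1 control pool, made from the extracts of 2 control replicates. A ratio of the 2 dyes is therefore AIMP3-depleted over control, in log2 units. No array had the dyes swapped, so a dye effect on a probe and the effect of depletion cannot be told apart, and neither can tamoxifen with active Cre and the loss of AIMP3, since all tamoxifen-treated cells carried the floxed alleles. The labels do not say whether the replicates were separate cultures, and the control pool has no spread of its own. Each p-value therefore measures no spread between control cultures. Its error joins the gene's spread between the 2 arrays with a spread shared by all genes. The shared part has the more weight (5.28 prior against 1 residual degree of freedom). *Eef1e1* itself had log2 ratios of −0.90 and −0.90 (adjusted p = 4.78e-05, limma).

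The arrays differed little in quality. Between 59.3% and 60.6% of spots were well above background in each channel, the median spot was 2.68 to 3.31 times its local background, and no spot was saturated. The number of arrays limits the precision. All 38 genes were well above background in every channel, and the SD between the 2 arrays had a median of 0.0398 log2 units over them against 0.048 over all genes.

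In a dividing cell, duplicated chromosomes are compacted by condensin, a ring-shaped ATPase, and are pulled apart by spindle microtubules that attach at the kinetochore, a protein complex on the centromere. The spindle checkpoint holds back the anaphase-promoting complex until every kinetochore is attached, after which securin and cyclin B are destroyed, separase cuts cohesin and the cell divides. Most of these genes are transcribed late in the cell cycle, and their promoters are known for a cell cycle homology region (CHR), bound by the MuvB complex with B-MYB and FOXM1 or with the DREAM repressor proteins, and for CCAAT boxes, bound by NF-Y. Mouse ES cells cycle fast and express these genes at high levels.

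Most of the 38 mitotic genes read lower in AIMP3-depleted mESCs, each by a small amount. After loess normalization, which takes out any trend of the dye ratio with brightness, 25 of the 38 fell, 1 rose and 12 did not pass the test (limma, adjusted p under 0.05 at any fold). Over all genes tested, 54.3% passed this test, 23.7% downwards and 30.6% upwards, against 65.8% of the mitotic genes that fell. Of the 38, 35 were below 0 on both arrays, 3 (*Cdc20*, *Pttg1* and *Cenpf*) were above 0 on both, and none had opposite signs. The median log2 ratio of the 38 was −0.19 (−0.18 on replicate 1 and −0.21 on replicate 2) beside 0.02 over all genes. No mitotic gene passed the study's threshold of 1.5-fold with p under 0.05, which 0.791% of all genes passed downwards and 5.53% upwards. The gene with the lowest ratio, *Bub1*, was 1.46-fold lower. RNA of whole cultures was measured, so a change in the share of cells in each cell cycle phase and less of each mRNA per cell cannot be told apart. The paper reported arrest of AIMP3-depleted mESCs at the G2/M phase, at an earlier day of treatment than these arrays.

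These directions depend on how the dyes were balanced. Median centring of each array over all its probes, in place of loess, put the median of all genes at 0.18 and that of the mitotic genes at 0.04, with 7 genes lower and 11 higher. Under that scaling 8.74% of all genes were lower and 54.5% higher. The 11 were *Cdc20*, *Pttg1*, *Cenpf*, *Cenpe*, *Birc5*, *Incenp*, *Cdc25b*, *Tpx2*, *Hmmr*, *Anln* and *Smc4*, of which *Anln* had been called lower after loess. Relative to the median of all genes, the mitotic genes were at −0.21 after loess and at −0.14 after median centring, and 35 and 29 of the 38 lay below it. The 7 genes *Bub1*, *Nusap1*, *Top2a*, *Aurkb*, *Bub1b*, *Kif2c* and *Cdc25c* were called lower by limma under each of the 9 ways of correcting, normalizing, filtering or sourcing the values. These 9 are not independent, since a filter or the mean of probes changes no ratio of a gene with 1 tested probe. The authors' table also nearly equals the processed signals after a constant shift. Median centring over the genes tested likewise shifts the other median centring by a constant on each array. Under median centring over all probes no other gene of the 38 kept a call as lower. With the methods' t-test on the 2 ratios 0 of the 38 passed after adjustment (11 were lower before it). Values given from here on are those after loess unless another setting is named.

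**Figure D1:**
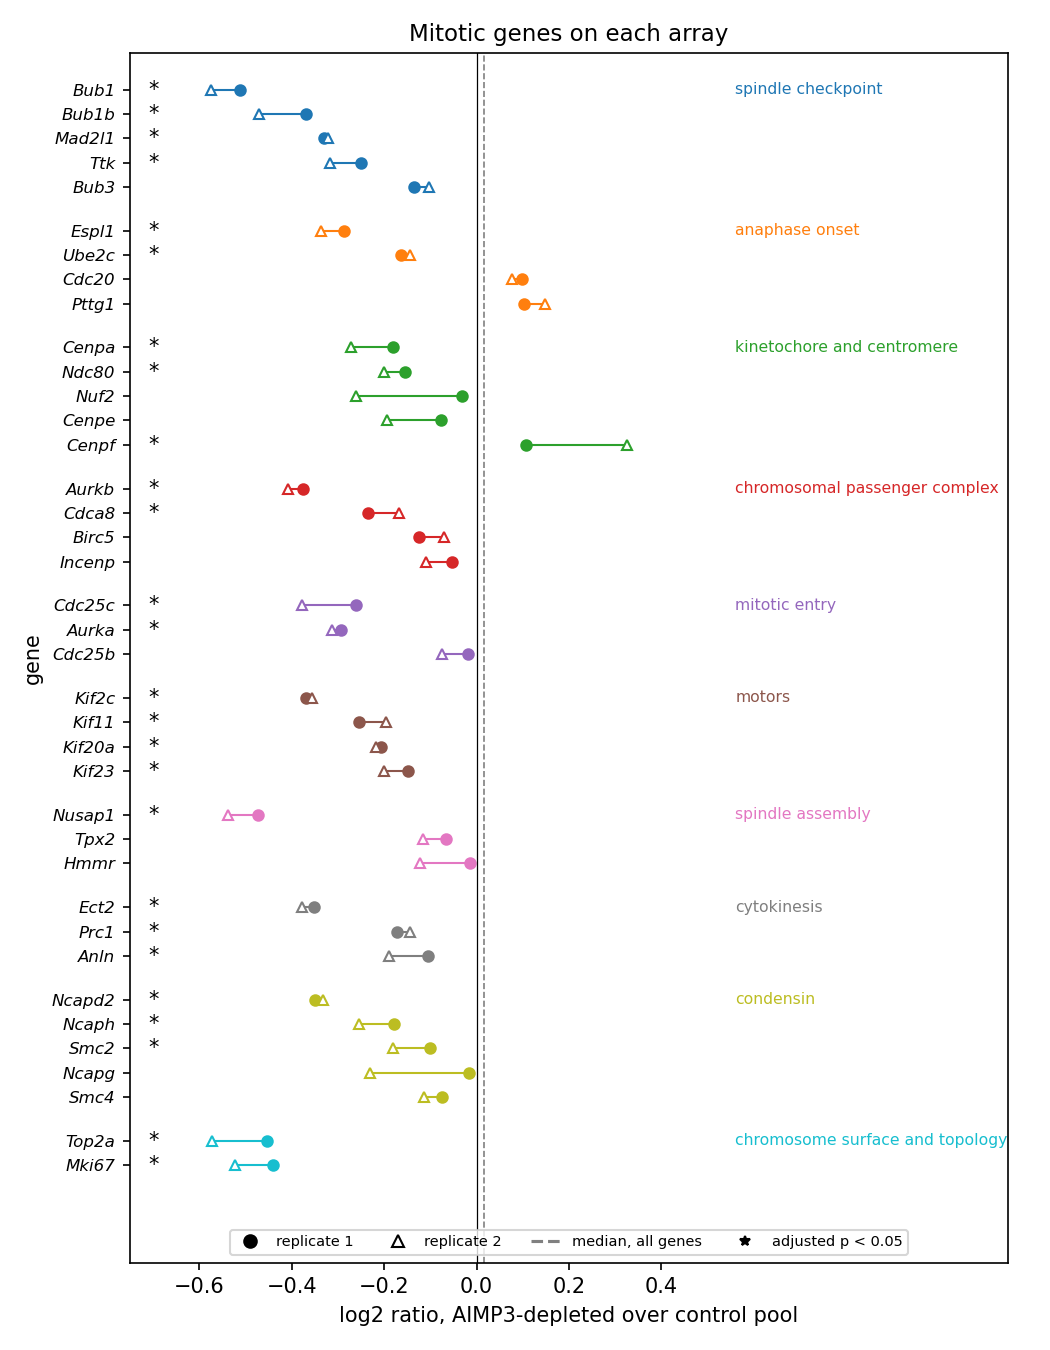
Log2 ratio (AIMP3-depleted over control pool, horizontal axis) of each of the 38 mitotic genes on the array of replicate 1 (filled circles) and of replicate 2 (open triangles), grouped by role, after loess. Stars mark an adjusted p under 0.05 (limma) and the dashed line is the median of all genes, 0.02. Of the 38, 35 lie to the left of 0 on both arrays, and *Cdc20*, *Pttg1* and *Cenpf* lie to the right.

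The promoters of 5 of these genes are printed because they span the range of responses. They are the 3 genes with the lowest ratios, *Bub1*, *Top2a* and *Nusap1*, and 2 that lay above 0 on both arrays, *Cdc20* and *Cenpf*. Each window runs from 250 bases before to 50 bases after the RefSeq gene start on GRCm38.p6, is read 5′ to 3′ on the gene's strand, and shows matches to the CHR (TTTGAA or TTCGAA) and the CCAAT box (CCAAT), on either strand, in capitals. On the opposite strand the CHR reads TTCAAA, or TTCGAA again, and the CCAAT box reads ATTGG. A match describes letters and is not a binding site. The windows are chr2:127831810-127832109 on the minus strand for *Bub1*, chr11:99024140-99024439 on the minus strand for *Top2a*, chr2:119618048-119618347 on the plus strand for *Nusap1*, chr4:118437294-118437593 on the minus strand for *Cdc20* and chr1:189688037-189688336 on the minus strand for *Cenpf*.
Bub1: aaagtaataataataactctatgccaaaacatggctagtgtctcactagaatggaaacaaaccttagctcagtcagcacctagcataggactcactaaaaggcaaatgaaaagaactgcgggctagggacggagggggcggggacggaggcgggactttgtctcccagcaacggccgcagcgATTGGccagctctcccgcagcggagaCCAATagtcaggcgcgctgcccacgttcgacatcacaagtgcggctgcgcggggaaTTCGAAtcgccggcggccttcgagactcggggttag
Top2a: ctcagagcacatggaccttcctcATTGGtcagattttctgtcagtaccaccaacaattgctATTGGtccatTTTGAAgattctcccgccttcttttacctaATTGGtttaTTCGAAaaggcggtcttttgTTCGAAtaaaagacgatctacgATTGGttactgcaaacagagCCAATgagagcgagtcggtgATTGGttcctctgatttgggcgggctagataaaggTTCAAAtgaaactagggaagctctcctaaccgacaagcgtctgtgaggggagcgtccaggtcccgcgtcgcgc
Nusap1: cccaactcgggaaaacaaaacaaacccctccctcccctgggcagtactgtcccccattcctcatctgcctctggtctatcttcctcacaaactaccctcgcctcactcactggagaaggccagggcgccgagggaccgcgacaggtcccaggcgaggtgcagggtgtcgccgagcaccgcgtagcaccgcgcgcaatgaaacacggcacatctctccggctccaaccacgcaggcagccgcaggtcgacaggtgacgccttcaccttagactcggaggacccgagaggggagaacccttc
Cdc20: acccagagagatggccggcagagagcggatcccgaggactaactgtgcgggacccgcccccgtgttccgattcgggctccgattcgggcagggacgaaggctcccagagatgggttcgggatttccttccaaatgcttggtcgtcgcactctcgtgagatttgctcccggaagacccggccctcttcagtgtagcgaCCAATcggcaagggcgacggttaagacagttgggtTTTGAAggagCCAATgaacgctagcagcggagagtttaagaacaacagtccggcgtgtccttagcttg
Cenpf: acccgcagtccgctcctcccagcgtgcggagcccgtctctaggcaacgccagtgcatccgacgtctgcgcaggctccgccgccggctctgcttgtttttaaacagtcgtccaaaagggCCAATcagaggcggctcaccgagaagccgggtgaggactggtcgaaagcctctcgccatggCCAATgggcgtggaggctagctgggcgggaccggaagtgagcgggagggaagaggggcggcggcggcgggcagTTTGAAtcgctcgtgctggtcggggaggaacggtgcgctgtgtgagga

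The *Bub1* window holds 1 CHR, centred 17 bases after the start, and 2 CCAAT boxes. That of *Top2a* holds 4 CHR and 6 CCAAT matches, while that of *Nusap1* holds neither motif. *Cdc20* and *Cenpf* each carry 1 CHR and 2 CCAAT boxes, so the windows of genes with ratios above and below 0 share these letters. RefSeq gave windows for 32 of the 38 genes, 35 windows in all because *Bub3*, *Ect2* and *Prc1* have 2 overlapping starts each, and none for *Aurkb*, *Cdc25c*, *Incenp*, *Kif20a*, *Smc4* and *Tpx2*. A CHR was found in 28 of the 35 windows (80.0%) against 19.2% of the 32851 promoter windows of the same length, and a CCAAT box in 26 (74.3%) against 37.4%. Both motifs stood in 25 windows (71.4%) against 7.52% of all. The CHR lay within 50 bases of the start in 24 windows (68.6%), against 5.42% of all windows. The E2F core GCGGGAA, searched on both strands, was in 1 window, that of *Ncapg* (2.86% against 4.6%).

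Among the mitotic genes, those with and without a CHR overlapped in their ratios. The 25 genes with a CHR had a median log2 ratio of −0.20 and 19 of them were lower, whereas the 7 without it had a median of −0.15 and 3 were lower. The latter include *Nusap1*, among the lowest of the 38, and *Pttg1*, among the highest. No test was made of this difference.

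**Figure D2:**
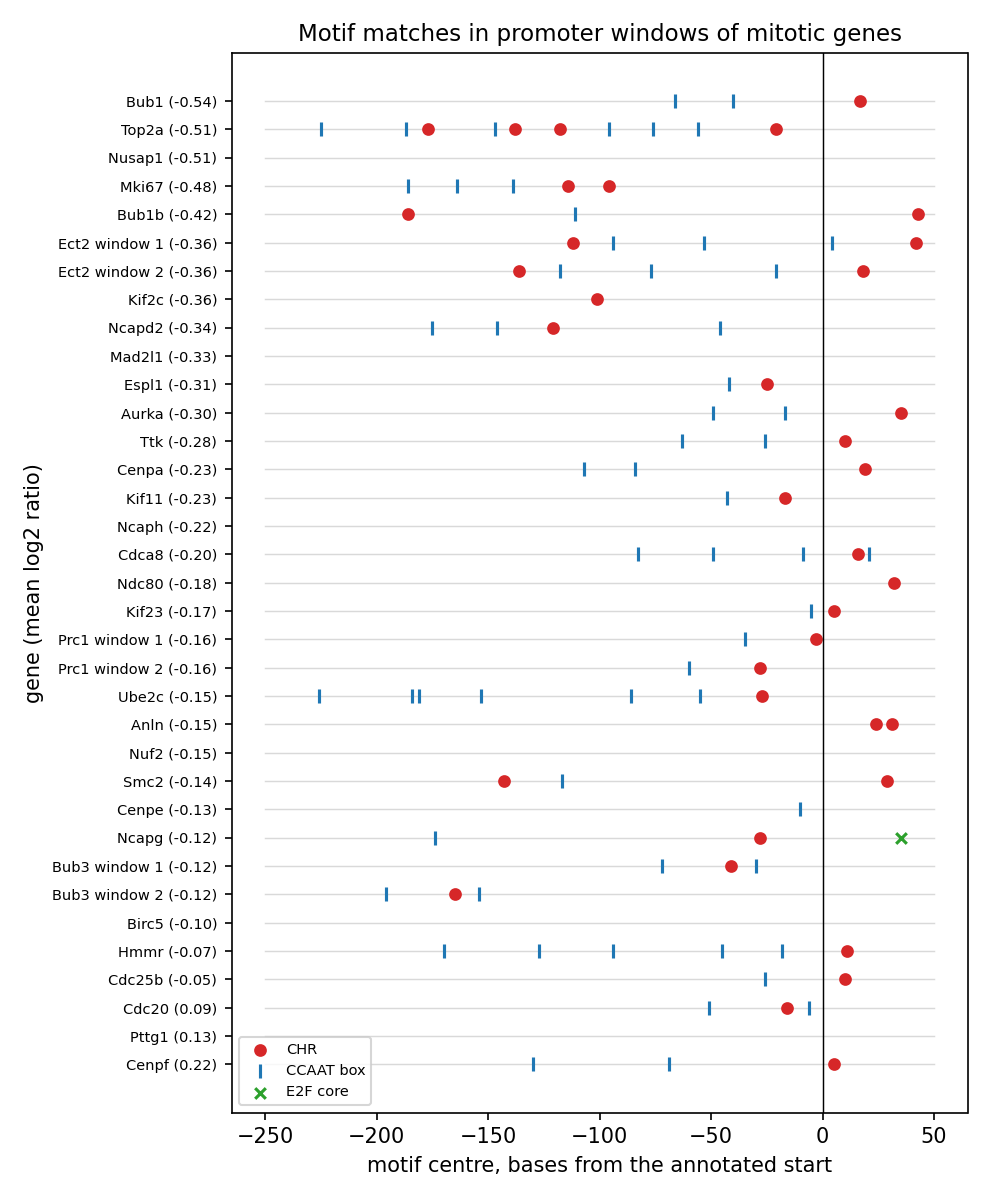
Positions of CHR (circles), CCAAT box (bars) and E2F core (cross) matches in the 35 promoter windows of 32 mitotic genes, as bases from the annotated start, with genes ordered from the lowest to the highest mean log2 ratio (in brackets). The CHR lies within 50 bases of the start in 24 windows, among them those of *Bub1* at the top and *Cenpf* at the bottom.

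Of the 5 spindle checkpoint genes 4 fell, with a median of −0.33 (−0.12 under median centring, where *Bub1* and *Bub1b* alone were called). *Bub1*, a kinase that recruits checkpoint proteins to kinetochores, read 8288 and 7703 in the control pool on the arrays of replicates 1 and 2, and 5809 and 5175 in the depleted cells (normalized intensity). Both depleted values lay below both control values, with log2 ratios of −0.51 and −0.57 (mean −0.54 ± 0.04 SD, n = 2, adjusted p = 0.000229). *Bub1b*, which encodes the checkpoint effector BubR1, read 4341 and 4228 in the control and 3359 and 3048 after depletion, with log2 ratios of −0.37 and −0.47 (adjusted p = 0.000714). *Mad2l1*, the checkpoint subunit that captures Cdc20, had ratios of −0.33 and −0.32, and its other 2 probes averaged −0.21 and −0.24. The kinase gene *Ttk* (Mps1), which starts checkpoint signalling, had −0.25 and −0.32. *Bub3*, the adaptor that carries Bub1 and BubR1 to the kinetochore, was the smallest at −0.14 and −0.10 (mean −0.12 ± 0.02 SD, n = 2, adjusted p = 0.061) and did not pass. The ratios of *Bub1*, *Bub1b*, *Mad2l1* and *Ttk* lay below that of *Bub3* on both arrays, a difference that was not tested.

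The anaphase-onset genes were split in direction. Separase, the protease that cuts cohesin, is encoded by *Espl1*, which read 4339 and 3905 in the control pool and 3556 and 3093 in depleted cells (log2 ratios −0.29 and −0.34, mean −0.31 ± 0.03 SD, n = 2, adjusted p = 0.00174). *Ube2c*, the E2 enzyme that primes ubiquitin chains for the anaphase-promoting complex, also fell, with −0.16 and −0.14. The activator of that complex and its target securin did not follow. *Cdc20* read 31852 and 32162 in the control and 34109 and 33942 after depletion, with log2 ratios of 0.10 and 0.08 (mean 0.09 ± 0.015 SD, n = 2, adjusted p = 0.134). Securin, *Pttg1*, had 0.10 and 0.15 (adjusted p = 0.0523) on its brightest probe and −0.09 and −0.12 on a dimmer probe, so its probes disagreed in sign. *Cdc20* was called higher with an intensity trend and under either median centring (0.46 over all probes). *Pttg1* was called higher under these 3 settings (0.43 with median centring over all probes) and also with processed signals, the strict filter and the authors' table, but was at 0.01 (adjusted p = 0.851) with the mean of all its probes. Checkpoint target *Cdc20* was above 0 on both arrays and the checkpoint genes that restrain it were below 0, but the difference between them was not tested.

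Among the kinetochore and centromere genes 2 of 5 fell and 1 rose (median −0.15, with −0.08 on replicate 1 and −0.20 on replicate 2). *Cenpa*, the histone H3 variant that marks the centromere, read 15828 and 15240 in the control and 13973 and 12620 after depletion, with log2 ratios of −0.18 and −0.27 (mean −0.23 ± 0.07 SD, n = 2, adjusted p = 0.00802). *Ndc80*, the microtubule-binding subunit of the outer kinetochore, had −0.16 and −0.20. Its partner *Nuf2* had −0.03 and −0.26 and did not pass, and a dimmer *Nuf2* probe read 0.24 and −0.05. The arrays differed more for *Nuf2* than for *Ndc80*. The kinetochore motor gene *Cenpe* was at −0.08 and −0.19 (mean −0.13 ± 0.08 SD, n = 2, adjusted p = 0.0589). *Cenpf*, a large coiled-coil protein of the outer kinetochore, read 313 and 295 in the control and 337 and 369 in depleted cells, with ratios of 0.11 and 0.33 (mean 0.22 ± 0.16 SD, n = 2, adjusted p = 0.0257). It was the only one of the 38 called higher after loess, from a dim probe whose arrays differed, and that call was lost under 5 of the other settings (processed signals, no filter on dim probes, the authors' table, the methods' t-test and median centring over the genes tested), where its adjusted p lay between 0.0682 and 0.414.

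The chromosomal passenger complex corrects faulty attachments, and 2 of its 4 genes fell (median −0.15). Its kinase, *Aurkb*, read 422 and 394 in the control pool and 325 and 297 after depletion (log2 ratios −0.38 and −0.41, mean −0.39 ± 0.02 SD, n = 2, adjusted p = 0.000678). *Cdca8*, which encodes borealin, had −0.24 and −0.17. The remaining subunits, survivin (*Birc5*, −0.13 and −0.07, adjusted p = 0.11) and the scaffold *Incenp* (−0.05 and −0.11, mean −0.08 ± 0.04 SD, n = 2, adjusted p = 0.17), did not pass the test. The kinase gene had the lowest ratio of the 4 on both arrays, a difference that was not tested.

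Of the mitotic-entry genes, 2 of 3 fell (median −0.30). *Cdc25c*, a phosphatase that activates Cdk1, read 644 and 652 in the control and 537 and 502 after depletion, with log2 ratios of −0.26 and −0.38 (mean −0.32 ± 0.08 SD, n = 2, adjusted p = 0.00233). The centrosomal kinase *Aurka* had −0.29 and −0.31 (mean −0.30 ± 0.01 SD, n = 2, adjusted p = 0.00178). *Cdc25b*, another phosphatase of this family, had the mean log2 ratio nearest to 0 of the 38, with −0.02 and −0.08 (mean −0.05 ± 0.04 SD, n = 2, adjusted p = 0.409).

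After loess all 4 kinesin motor genes fell (median −0.22), of which *Kif2c* alone was called lower under median centring. *Kif2c*, a kinesin that depolymerizes microtubules, read 2082 and 1925 in the control and 1613 and 1504 after depletion (log2 ratios −0.37 and −0.36, mean −0.36 ± 0.01 SD, n = 2, adjusted p = 0.000876), and its second probe averaged −0.38. *Kif11*, the motor that pushes spindle poles apart, had −0.26 and −0.20. *Kif20a* and *Kif23*, which work at the central spindle, had −0.21 and −0.22, and −0.15 and −0.20 (*Kif23* mean −0.17 ± 0.04 SD, n = 2, adjusted p = 0.0179). These 8 ratios were all below 0 after loess, but under median centring the signs of *Kif20a* and *Kif23*, and of no other motor gene, turned.

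Of the 3 spindle assembly genes only *Nusap1*, which bundles microtubules near chromatin, fell. It read 6521 and 6279 in the control pool and 4701 and 4324 in depleted cells (log2 ratios −0.47 and −0.54, mean −0.51 ± 0.05 SD, n = 2, adjusted p = 0.000305). *Tpx2*, which activates Aurora A and nucleates microtubules, had −0.07 and −0.12, and *Hmmr*, a spindle-associated protein, had −0.02 and −0.12 (mean −0.07 ± 0.08 SD, n = 2, adjusted p = 0.269).

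After loess the 3 cytokinesis genes all fell (median −0.16). *Ect2*, the exchange factor that activates RhoA at the division plane, read 12711 and 12087 in the control and 9961 and 9306 after depletion (log2 ratios −0.35 and −0.38, mean −0.36 ± 0.02 SD, n = 2, adjusted p = 0.000876). *Prc1*, which crosslinks the central spindle, had −0.17 and −0.14, and *Anln*, the actin-binding anillin of the contractile ring, had −0.11 and −0.19 (mean −0.15 ± 0.06 SD, n = 2, adjusted p = 0.0372). None of the 3 was called lower under median centring, where *Ect2* was at −0.10 (adjusted p = 0.2), *Prc1* at 0.13 (adjusted p = 0.0857) and *Anln*, lower in 4 of the 9 settings, was called higher at 0.22 (adjusted p = 0.00353).

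Condensin genes fell in 3 cases of 5 (median −0.14, with −0.10 on replicate 1 and −0.23 on replicate 2), and none was called lower under median centring. *Ncapd2*, a regulatory subunit of condensin I, read 23835 and 22234 in the control and 18704 and 17651 in depleted cells (log2 ratios −0.35 and −0.33, mean −0.34 ± 0.01 SD, n = 2, adjusted p = 0.00111). *Ncaph*, the kleisin that closes the condensin I ring, had −0.18 and −0.25. The genes of the ATPase core had ratios nearer 0, with *Smc2* at −0.10 and −0.18 (adjusted p = 0.0423) and *Smc4* at −0.08 and −0.11 (mean −0.09 ± 0.03 SD, n = 2, adjusted p = 0.115), while *Ncapg* was at −0.02 and −0.23 (adjusted p = 0.134) on a dim probe.

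Both genes of chromosome surface and topology fell, with the lowest median of any role (−0.50). Under median centring that median was −0.18, and *Mki67* was at −0.10 and not called (adjusted p = 0.224). Topoisomerase IIα, *Top2a*, which untangles sister chromatids, read 8680 and 8234 in the control and 6336 and 5538 after depletion (log2 ratios −0.45 and −0.57, mean −0.51 ± 0.08 SD, n = 2, adjusted p = 0.00039). The proliferation marker *Mki67*, which coats mitotic chromosomes, read 45724 and 44117 in the control and 33709 and 30699 after depletion, with log2 ratios of −0.44 and −0.52 (mean −0.48 ± 0.06 SD, n = 2, adjusted p = 0.000395). Its second probe averaged −0.42.

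The 38 genes mostly had bright probes: 30 lay in the brightest of 3 equal intensity bands of all genes, 5 in the middle and 3 in the dim band. In the bright band their median was −0.19 after loess, beside 0.01 over all genes, and 66.7% were lower beside 28.4%. After median centring, the bright band of all genes had a median of 0.29 and the mitotic genes in it 0.09. The bright band, over all genes, was the band whose median moved most with the choice of dye normalization.

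**Figure D3:**
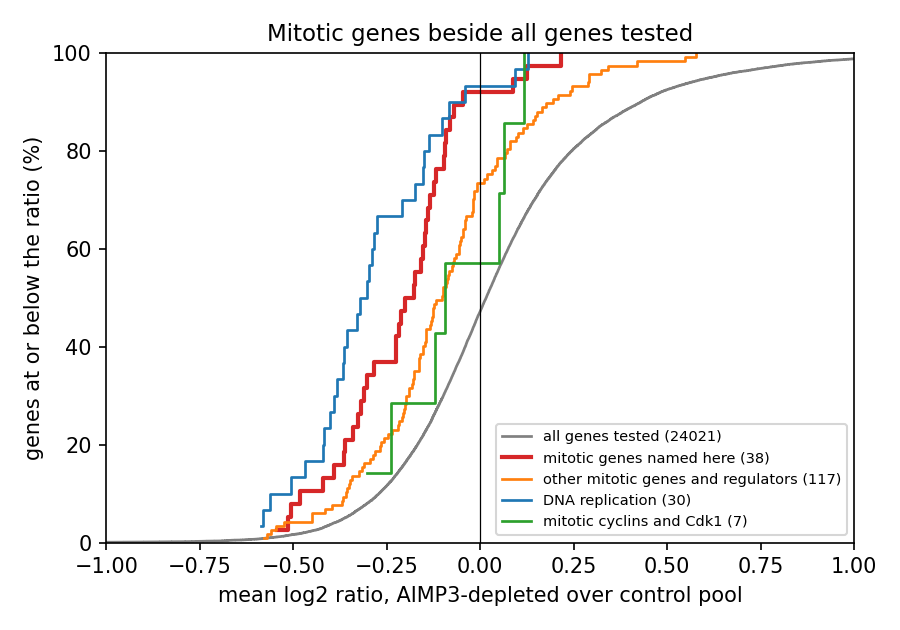
Cumulative share of genes (%, vertical axis) at or below each mean log2 ratio (horizontal axis) for all 24021 genes tested, the 38 mitotic genes, 117 other mitotic genes and regulators, 30 DNA replication genes and 7 genes of the mitotic cyclins and Cdk1, after loess. Over most of the range the curve of the 38 lies left of the curve of all genes, but the lowest of the 38 is at −0.54 and the lowest of all genes at −1.66.

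A list of other mitotic genes and of regulators of mitotic transcription was read on the same arrays. Of 118 listed, 117 were matched on the array (the kinesin gene *Kif14* was not), and 52 fell, 17 rose and 48 did not pass, with a median of −0.10 and 44.4% lower beside 23.7% of all genes. The 15 regulators are among the 117. After median centring 10 were lower and 50 higher, where 8.74% of all genes were lower and 54.5% higher. The 27 other kinetochore and centromere genes held 17 that fell and 2 that rose, with a median of −0.16, and the 14 other condensin and cohesin genes held 6 and 1. Of 21 other checkpoint and anaphase genes 7 fell and 4 rose, of 25 other motor and spindle genes 13 fell and 3 rose, of 11 other entry kinase genes 4 fell and 2 rose, and of 4 other cytokinesis genes 1 fell and 1 rose. These counts, too, moved under median centring, to 5 lower and 7 higher for the kinetochore and centromere genes, 0 and 7 for condensin and cohesin, 2 and 9 for checkpoint and anaphase, 1 and 9 for motors and spindle, 2 and 6 for entry kinases and 0 and 1 for cytokinesis. The 3 lowest called genes of the list were *Ska1* (−0.58 and −0.58), a subunit of the kinetochore complex that tracks microtubule ends, *Cenpk* (−0.55 and −0.59), a subunit of the inner kinetochore, and *Ube2s* (−0.62 and −0.50), which extends ubiquitin chains with the anaphase-promoting complex. The 3 highest on the brightest probe of each gene were the GTPase *Rhoa* (0.57 and 0.58), the inner kinetochore gene *Cenpt* (0.57 and 0.52) and *Arpp19* (0.43 and 0.41), an inhibitor of the phosphatase PP2A. All 6 kept their sign and their call under median centring. A dimmer *Rhoa* probe read −0.60 and −0.36, so its probes disagreed in sign, and with the mean of all probes *Rhoa* was at 0.05 and was not called.

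Of 15 regulators of mitotic transcription 4 were lower and 4 higher (median −0.01), 26.7% in each direction beside 23.7% and 30.6% of all genes. *Lin54* (−0.33 and −0.36), the MuvB subunit that contacts the CHR, *Rbl1* (−0.23 and −0.40), *Rbbp4* (−0.21 and −0.19) and *E2f5* (−0.16 and −0.13) fell. *Rbl2* (0.19 and 0.29), which encodes the DREAM pocket protein p130, *Lin9* (0.27 and 0.12), *Nfyc* (0.13 and 0.20) and *Lin37* (0.13 and 0.16) rose. *Foxm1* (0.05 and 0.03), *Mybl2* (0.12 and 0.07), *E2f4* (0.02 and −0.05), *Nfya* (0.06 and 0.11), *Nfyb* (0.02 and −0.03), *Lin52* (−0.03 and −0.05) and *Tfdp1* (−0.17 and −0.08) did not pass. The probes of *Foxm1* and of *Mybl2* disagreed in sign, with dimmer probes averaging −0.06 and −0.10. Dimmer probes of *Lin52* averaged −0.20 and −0.31 and those of *Nfyb* −0.15 and −0.19, further below 0 than the probes used. *Lin52* was called lower in 1 of the 9 settings and higher under median centring, at 0.16. Under median centring 0 of the 15 were lower and 11 higher, beside 8.74% and 54.5% of all genes. The calls of *Lin54* (adjusted p = 0.112) and *Rbl1* (adjusted p = 0.0872) were lost there, *E2f5* was at 0.03, and *Rbbp4* was called higher at 0.17. Over the 9 settings, which are not independent, *Lin54* and *Rbl1* were called lower in 8 and *E2f5* and *Rbbp4* in 5. *Rbl2*, *Lin37*, *Lin9* and *Nfyc* were called higher in 8, 7, 6 and 5.

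The median of the 38 mitotic genes lay between those of all genes and of 30 DNA replication genes. Of the replication genes 25 fell and 0 rose (limma, also 0 at an unadjusted p under 0.05), with a median of −0.31 and *Gins2*, *Mcm6* and *Rfc1* the lowest, at −0.59, −0.58 and −0.56. Under median centring the replication genes held 6 lower and 5 higher with a median of −0.01, beside the same 8.74% and 54.5% of all genes. Of the 7 genes of the mitotic cyclins and Cdk1, 2 fell, *Ccnb1* (−0.34 and −0.27) and *Ccnb2* (−0.21 and −0.27), while *Cdk1* was at 0.02 and 0.08. That share of 28.6% lower stands beside 23.7% of all genes. Under median centring 0 of the 7 were lower and 4 were higher (*Ccnf*, *Cdk1*, *Cks1b* and *Cks2*, at 0.24, 0.30, 0.42 and 0.34), beside 54.5% of all genes higher under that scaling, and *Ccnb2* was at 0.07. After loess another *Cks1b* probe, nearly as bright as the 1 used, read −0.14 and −0.09. The dimmest *Cdk1* probe read −0.09 and −0.07, so the probes of both genes disagreed in sign. The differences between these lists were not tested.

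**Figure D4:**
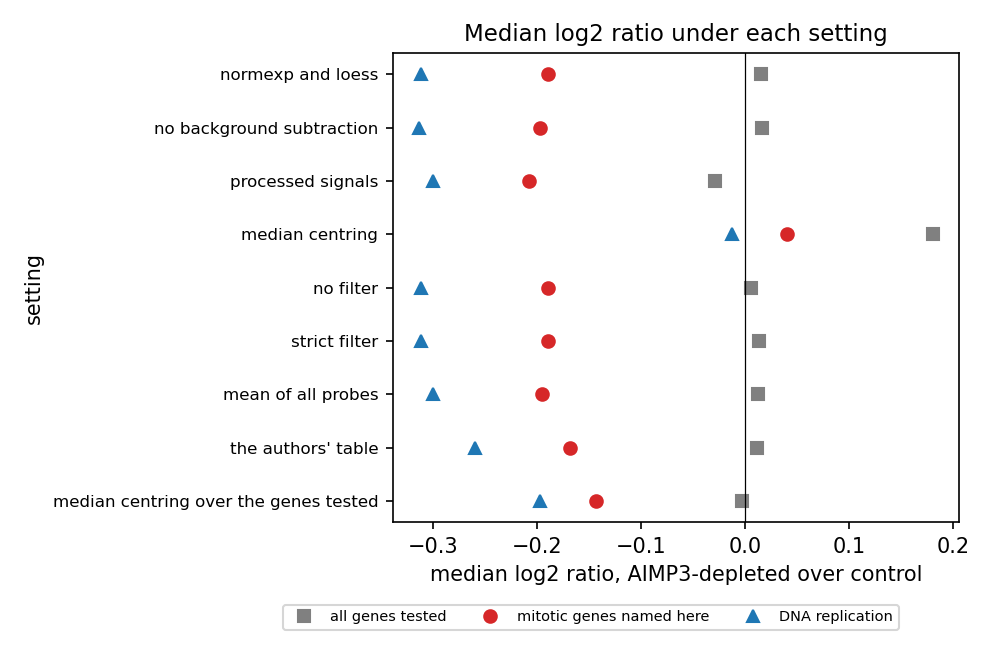
Median log2 ratio (horizontal axis) of all genes tested (squares), the 38 mitotic genes (circles) and 30 DNA replication genes (triangles) under each of 9 settings of correction, normalization, filter and source. The circles lie left of the squares under each setting, and median centring over all probes alone puts the circle above 0.

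Markers of other cells moved with depletion. Of 10 mESC markers 7 fell and 2 rose (*Klf4* and *Tfcp2l1*), beside 23.7% of all genes lower and 30.6% higher. Their summed normalized intensities were 148500 and 146700 in the control and 123800 and 118300 after depletion. A few bright probes set such sums, here *Tdgf1* and *Utf1*, with 49770 and 35133 in the control on the array of replicate 1. All 10 fibroblast markers rose, beside 30.6% of all genes, with sums of 21380 and 20920 in the control and 38840 and 37360 after depletion. The brightest of them, *Col1a1* and *Col1a2*, read 6935 and 6153 in the control and 14380 and 13074 after depletion on the array of replicate 1. All 8 endoderm markers rose, beside the same 30.6% of all genes, from sums of 132100 and 141600 to 304400 and 315500. The matrix genes *Sparc* and *Lama1* made up most of these sums, with 85296 and 37243 in the control on the array of replicate 1. The endoderm transcription factor genes had log2 ratios of 1.42 and 1.45 for *Sox17*, 1.23 and 1.18 for *Gata6*, 1.11 and 1.11 for *Sox7*, and 0.65 and 0.89 for *Gata4*. Every marker was well above background in every channel, and none was at 0. No count of these markers is given under median centring, where 54.5% of all genes were higher. The labels describe general culture on feeder layers of mouse embryonic fibroblasts, whereas the methods name medium conditioned by such fibroblasts for drug treatment, so whether the profiled cultures held feeder cells is not settled. The part of this shift in the ratios of the mitotic genes was not tested.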

How the data were processed

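RNA of 2 AIMP3-depleted mESC replicates was hybridized to 2 Agilent mouse 2-colour arrays (62976 spots each), each against 1 control pool. Per the file headers, the deposited scanner files were made with Feature Extraction 11.5.1.1 and hold median spot and background intensity per channel, and the log10 ratios and processed signals in them are background-subtracted and dye-normalized. The deposited value table holds log2 ratios, which equalled the log2 ratio of the processed signals after a constant shift (0.0404 and 0.0395), within 0.01 for 99.7% of probes. Its column medians were 0.0909 and 0.111. The authors normalized it in GeneSpring, and its centring is not stated.

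From the median intensities, background was corrected by normexp (offset 50) and dyes were balanced by loess within each array in limma 3.58.1 (R 4.3.3). Control spots had weight 0, and 215 and 227 spots flagged as outliers were dropped. Spots of a probe were averaged. Probes that the scanner software marked as clearly above background in 1 or both dyes of each array were kept (33012 probes), and the brightest probe stood for its gene. 27509 probes were named through RefSeq accessions, and 14974 of the 24021 genes had a RefSeq name. Each gene's average over both arrays was compared with 0 in limma by lmFit and eBayes (residual degrees of freedom 1, prior 5.28), adjusted by Benjamini-Hochberg over all genes. Steps were tested on simulated data.

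The named genes are all 38 members, with full statistics for the largest and smallest log2 ratio of each role, the 3 lowest and 3 highest called genes of the pathway list, and the regulators of mitotic transcription. The genes, roles, lists and tests were chosen with earlier results of these data known. Lists are described by counts and medians and were not tested. Motifs were searched in RefSeq promoter windows of 300 bases.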

Additional observations from a re-analysis of the deposited data

How the results depend on the processing

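Leaving out replicate 1 or 2 left the median of the 38 mitotic genes between −0.21 and −0.18 and that median minus the median of all genes between −0.22 and −0.19, with 0 genes past 1.5-fold. Of the role medians, that of kinetochore and centromere genes was −0.20 without replicate 1 and −0.076 without replicate 2, and that of condensin −0.23 and −0.10. With 1 array there is no residual degree of freedom, so no adjusted count was made. Each array's ratio already sets 1 depleted sample against the control pool on that array. No further pairing was possible because no second group has its own arrays. The number lower was 25 after loess and 25 without background subtraction, 22 with processed signals, 19 without a filter, 26 with the strict filter and with the mean of all probes, 18 with the authors' table, 32 with an intensity trend, 20 with median centring over the genes tested (an alternative chosen after seeing the data), 7 with median centring over all probes and 0 with the methods' t-test, where 11 were lower before adjustment. The number higher was 1 after loess, 0 without a filter (1 before adjustment) and with the methods' t-test (0 before adjustment), 2 with the strict filter, 3 with the intensity trend, 11 with median centring over all probes and 2 with it over the genes tested. With processed signals 1 gene, *Bub1*, was past 1.5-fold. The median minus that of all genes was −0.18 with processed signals, −0.18 with the authors' table and −0.14 with either median centring. The median of the 38 was 0.041 with median centring over all probes and −0.14 with it over the genes tested.

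Median centring over all probes turned the sign of the medians of anaphase onset (0.27), kinetochore and centromere (0.062), the chromosomal passenger complex (0.20), mitotic entry (0.0054), motors (0.015), spindle assembly (0.16), cytokinesis (0.13) and condensin (0.040), and left those of the spindle checkpoint at −0.12 and of chromosome surface and topology at −0.18. It also turned *Bub3* (0.14), *Ube2c* (0.12), *Cenpa* (0.062), *Cenpe* (0.20), *Ndc80* (0.023), *Nuf2* (0.037), *Birc5* (0.31), *Incenp* (0.28), *Cdca8* (0.13), *Aurka* (0.0054), *Cdc25b* (0.17), *Kif20a* (0.042), *Kif23* (0.045), *Tpx2* (0.16), *Hmmr* (0.23), *Anln* (0.22), *Prc1* (0.13), *Ncaph* (0.040), *Smc2* (0.11) and *Smc4* (0.20). Centring over the genes tested turned anaphase onset (0.090), the chromosomal passenger complex (0.020), *Cenpe* (0.017), *Birc5* (0.12), *Incenp* (0.10), *Hmmr* (0.047), *Anln* (0.036) and *Smc4* (0.015), and the authors' table turned anaphase onset (0.019). The cause was not tested. Ratios of dim probes are pulled towards 0 by the normexp offset.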
